A study of Mus musculus with 9 samples.

Results

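The 9 genes described here are Sv2a, Sv2b, Sv2c, Syp, Syt1, Syt11, Vamp2, Snap25 and Stx1a, and all encode proteins of synaptic vesicles or of the machinery that fuses them with the membrane. They were chosen by function, but with earlier results of these data known, so counts set beside all genes describe them and are no test. Each was read from the array row that carries its symbol alone, and all 9 had such a row among the 22180 genes measured. The study asked which RNAs of the embryonic cortex are held by Pum2, a Pumilio protein that binds mRNAs and represses their translation. Tissue was embryonic cortex of CD1 mice, wild type in every group, taken at embryonic day 12 or 13. The input group was total RNA with no antibody, the IgG group was RNA precipitated with normal rabbit IgG, and the Pum2 group was RNA precipitated with a rabbit antibody to Pumilio2, each with 3 arrays labelled as biological replicates. The labels do not say how many embryos made up a replicate or whether the precipitates of one number shared a lysate. P-values therefore measure the spread between these arrays.

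Synaptic vesicles store neurotransmitter and release it when their membrane fuses with that of the nerve terminal. Fusion is driven by SNARE proteins, in which synaptobrevin (Vamp2) on the vesicle zips up with syntaxin 1A (Stx1a) and Snap25 on the cell membrane. Many synaptotagmins sense calcium, and the SV2 glycoproteins and synaptophysin (Syp) sit in the vesicle membrane. In the embryonic cortex many genes of this kind, though not all, are known for being switched on as precursors turn into neurons. Values are log2 signals, so a difference of 1 is a doubling. A gene was called where the limma adjusted p, taken over all 22180 genes, was below 0.05. A difference is given with its standard error.

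Pearson r between arrays, taken across genes, which are not independent replicates, was 0.994 to 0.996 within a group and 0.977 to 0.989 between groups. The tissue label was checked against markers by level, since RMA values do not reach 0 and carry no detection call. Mean input signals of the cortical identity genes were 8.47 for Emx1, 9.38 for Emx2 and 10.55 for Lhx2, above the median level of genes, 6.08. Signal sums of these 3 genes were 28.28 to 28.47 in input, 28.10 to 28.35 in IgG and 29.12 to 29.35 with Pum2 (summed log2). All 3 marker genes of astrocytes and oligodendrocytes that were measured lay below that median. The 4 endothelial, 4 meningeal and 3 red blood cell markers measured all lay above it. Mean input signals were 8.92 for Cdh5, 8.71 for Dcn and 10.95 for Hbb-bh1. By level, RNA of vessels, meninges and blood was thus present beside that of cortex cells.

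Against nonspecific IgG, 5 of the 9 genes rose in the Pum2 precipitate and 0 fell. These were Sv2b, Syt11, Syp, Sv2a and Stx1a, and the median difference of the 9 was 0.48, beside 0.04 over all genes. Over all genes 30.7% were called in this comparison, 19.4% higher and 11.4% lower, and 63% of the calls were higher, or 46.9% with arrays centred on the brighter genes. At an unadjusted p under 0.05 the count of lower members was also 0. The Pum2 arrays lay wholly above the IgG arrays for 6 of the 9 genes and wholly below them for 0, beside 25.9% and 15.4% of all genes. Of the 9 genes, 8 had a mean signal at or above the median level of genes, and Sv2c lay below it. Shares over all genes, here and below, include genes under that level. With only genes at or above it tested, 6 of 8 members rose over IgG and 0 fell, beside 4344 higher and 2330 lower of 11090 genes.

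**Figure D1:**
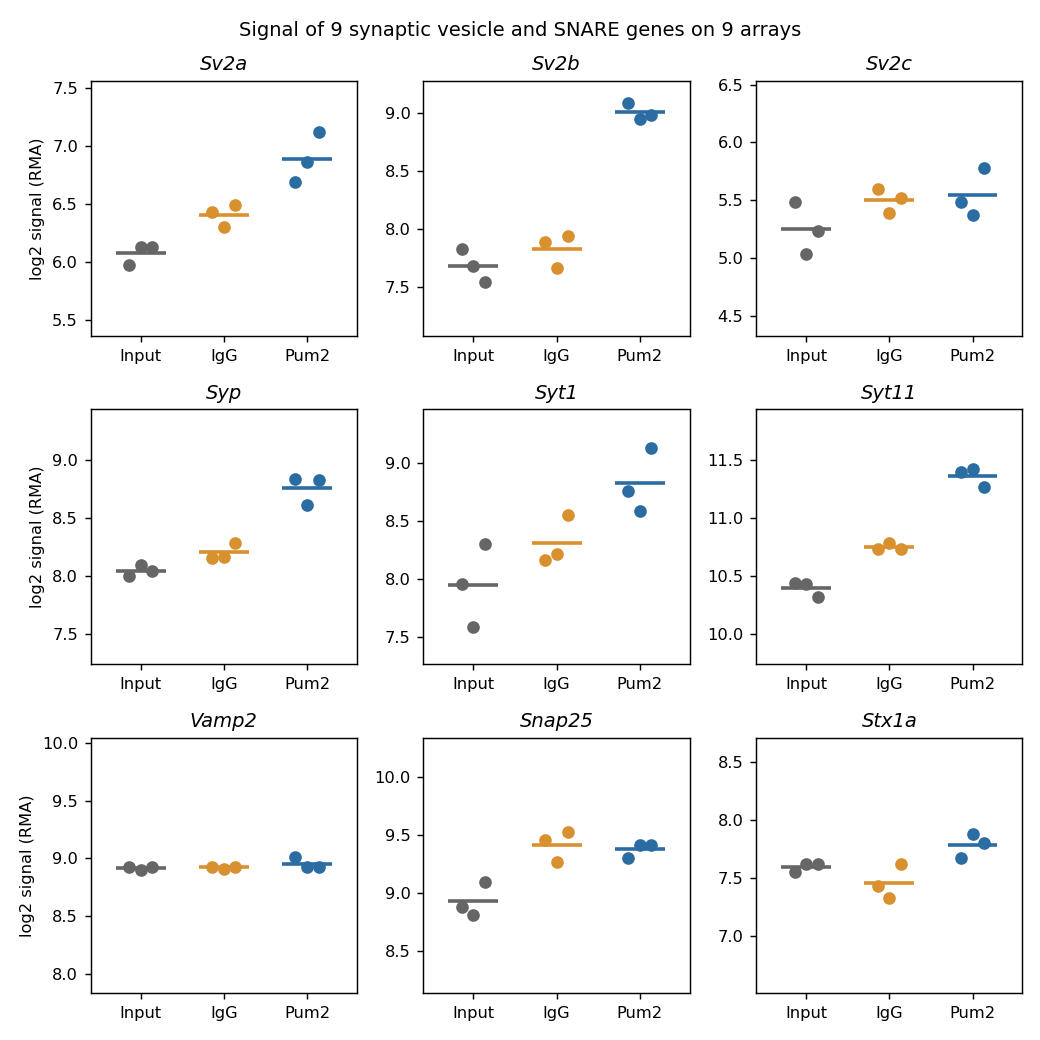
Log2 signal (vertical axes, each spanning 2.2 units) of the 9 genes in input, IgG and Pum2 groups; points are arrays 1 to 3 from left to right and lines are group means. The Pum2 arrays of Sv2b lie between 8.95 and 9.09, all above the input and IgG arrays, while the arrays of Vamp2 lie within 8.90 to 9.01.

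SV2 proteins are transporter-like glycoproteins of the vesicle membrane, and SV2A is the binding site of the antiepileptic drug levetiracetam. Sv2b had signals of 7.83, 7.68 and 7.55 in input, 7.89, 7.67 and 7.94 in IgG and 9.09, 8.95 and 8.99 in the Pum2 precipitate. The IgG and input arrays overlapped, and all 3 Pum2 arrays lay above them by at least 1.01. Sv2b rose over IgG by 1.17 ± 0.10, which is 2.26-fold (limma adjusted p = 2.44e-05), and over input by 1.32 ± 0.10, which is 2.50-fold (adjusted p = 6.04e-06). Of all 22180 genes, 99.8% had a lower difference over IgG, where Sv2b ranked 49, and it ranked 21 over input. Its difference between IgG and input was 0.15 ± 0.10 (adjusted p = 0.377, 95% interval -0.08 to 0.37).

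Sv2a, the most widely expressed of the SV2 genes in the adult brain, had signals of 5.97, 6.13 and 6.13 in input, 6.43, 6.30 and 6.49 in IgG and 6.69, 6.86 and 7.12 with Pum2. The groups stood in that order without overlap. Sv2a rose with Pum2 by 0.48 ± 0.11 over IgG (1.40-fold, limma adjusted p = 0.00763) and by 0.81 ± 0.11 over input (1.75-fold, adjusted p = 2.49e-04). In IgG over input its difference was 0.33 ± 0.11, with an adjusted p of 0.0684. That call was made without Pum2 replicate 3 (adjusted p = 0.0326), whose Sv2a signal was the highest of the Pum2 arrays.

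Sv2c, the SV2 gene of restricted expression in the adult brain, had 5.49, 5.04 and 5.24 in input, 5.60, 5.39 and 5.52 in IgG and 5.49, 5.37 and 5.78 with Pum2. The 3 groups overlapped. Its differences were 0.04 ± 0.13 over IgG (limma adjusted p = 0.867, 95% interval -0.26 to 0.34) and 0.29 ± 0.13 over input (adjusted p = 0.132, interval -0.01 to 0.58), and the first had the other sign, -0.06, with arrays centred on the brighter genes. Without input replicate 1, its highest input array, the difference over input was 0.40 and was called (adjusted p = 0.0453).

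The SV2 genes were also set against each other within each array, as the change of one gene minus that of the other. The change over IgG was larger for Sv2b than for Sv2a by 0.69 and than for Sv2c by 1.13, and larger for Sv2a than for Sv2c by 0.44. In each case the 3 Pum2 arrays did not overlap the 3 IgG arrays, which gives an exact permutation p of 0.1, two-sided, the smallest that 3 against 3 arrays allow, and 0.191 after Benjamini-Hochberg adjustment over 21 comparisons of 7 pairs of members. No pair of members could therefore pass a threshold of 0.05 by this test. The SV2 genes also differ in level, with 9-array means of 8.18 for Sv2b, 6.46 for Sv2a and 5.43 for Sv2c. The part of level in the sizes of these changes was not tested.

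Syp encodes synaptophysin, an abundant protein of the vesicle membrane that binds synaptobrevin. Its signals were 8.0, 8.10 and 8.05 in input, 8.16, 8.17 and 8.29 in IgG and 8.84, 8.62 and 8.83 with Pum2. Arrays of each group were close together, and the Pum2 arrays lay above the rest. Syp rose by 0.56 ± 0.08 over IgG (1.47-fold, limma adjusted p = 5.91e-04) and by 0.71 ± 0.08 over input (1.64-fold, adjusted p = 8.78e-05). In IgG over input the difference was 0.15 ± 0.08 (adjusted p = 0.252). A second row of the array named Syp had signals of 3.87 to 4.31 only, and there the difference over IgG was 0.19 ± 0.09 (adjusted p = 0.181 over all 41345 rows).

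Synaptotagmins carry paired calcium-binding domains, and Syt1 is the calcium sensor of fast release. Syt1 had signals of 7.95, 7.58 and 8.30 in input, 8.16, 8.21 and 8.55 in IgG and 8.76, 8.58 and 9.13 with Pum2. It had the widest spread within groups of the 9 genes, with an SD of 0.36 in input, 0.21 in IgG and 0.28 with Pum2 (n = 3 each). All Pum2 arrays lay above all IgG arrays, but the nearest were only 0.04 apart. The rise over input, 0.88 ± 0.19 (1.84-fold), was called (limma adjusted p = 0.00478). The difference over IgG, 0.52 ± 0.19 (adjusted p = 0.0685, 95% interval 0.09 to 0.95), was not, though it was called when input replicate 2 (adjusted p = 0.041) or input replicate 3 (adjusted p = 0.043) was left out of the common estimate of the spread. It was also called with the spread taken from the IgG and Pum2 arrays alone (adjusted p = 0.0466), among genes of at least median level (0.0262) and with an intensity trend and robust prior (0.045). A replicate block gave the call too, with the value in the closing section.

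Syt11, an atypical synaptotagmin that does not sense calcium, had 10.44, 10.43 and 10.32 in input, 10.74, 10.79 and 10.74 in IgG and 11.40, 11.43 and 11.27 with Pum2. The groups again stood in that order without overlap, with at least 0.30 between IgG and input arrays and 0.48 between Pum2 and IgG arrays. Syt11 rose by 0.61 ± 0.07 over IgG (1.53-fold, limma adjusted p = 1.73e-04) and by 0.97 ± 0.07 over input (1.96-fold, adjusted p = 6.12e-06). It was also higher in IgG than in input, by 0.36 ± 0.07 (adjusted p = 0.00747). Syt11 and Syt1 changed by amounts that differed by 0.09 over IgG, which was within the spread of the arrays (exact permutation p = 0.6, two-sided).

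Vamp2, the vesicle SNARE, had signals of 8.93, 8.90 and 8.93 in input, 8.93, 8.91 and 8.93 in IgG and 9.01, 8.93 and 8.93 with Pum2. Its differences were 0.03 ± 0.06 over IgG (limma adjusted p = 0.783, 95% interval -0.11 to 0.17) and 0.03 ± 0.06 over input (adjusted p = 0.732, interval -0.11 to 0.18), and both turned below 0 under another scaling, to -0.065 and -0.036 after centring on the brighter genes and to -0.091 and -0.048 after a repeated quantile normalization. The same value, to all 6 decimals deposited, stood on 5 of the 9 arrays, 2 of input, 1 of IgG and 2 of Pum2. Values repeated on 5 or more arrays occurred in 871 genes, 3.93% of all, and their part in the flat signal of Vamp2 was not tested.

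Snap25, a SNARE anchored to the cell membrane of the terminal, had 8.88, 8.81 and 9.10 in input, 9.46, 9.27 and 9.53 in IgG and 9.30, 9.42 and 9.42 with Pum2. Both precipitates lay above input and overlapped each other. Snap25 rose over input by 0.49 ± 0.10 with IgG (1.40-fold, limma adjusted p = 0.00742) and by 0.45 ± 0.10 with Pum2 (1.36-fold, adjusted p = 0.00532). Its difference between Pum2 and IgG was -0.04 ± 0.10 (adjusted p = 0.815, 95% interval -0.26 to 0.18), and 0.02 without IgG replicate 3.

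Stx1a, the syntaxin of the nerve terminal that pairs with Snap25, had 7.55, 7.62 and 7.62 in input, 7.43, 7.33 and 7.62 in IgG and 7.67, 7.88 and 7.80 with Pum2. The Pum2 arrays lay above all others by at least 0.06, and IgG and input overlapped. Stx1a rose over IgG by 0.33 ± 0.09 (1.25-fold, limma adjusted p = 0.0203), but its difference over input, 0.19 ± 0.09, was not called (adjusted p = 0.14). In IgG over input its difference was -0.13 ± 0.09 (adjusted p = 0.368). The call over IgG ended with arrays centred on the brighter genes (0.23) or quantile-normalized again (0.25), and when any of 4 arrays was left out, namely replicate 1 of IgG (0.31), replicate 2 of IgG (0.26), replicate 2 of Pum2 (0.28) or replicate 3 of Pum2 (0.32).

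**Figure D2:**
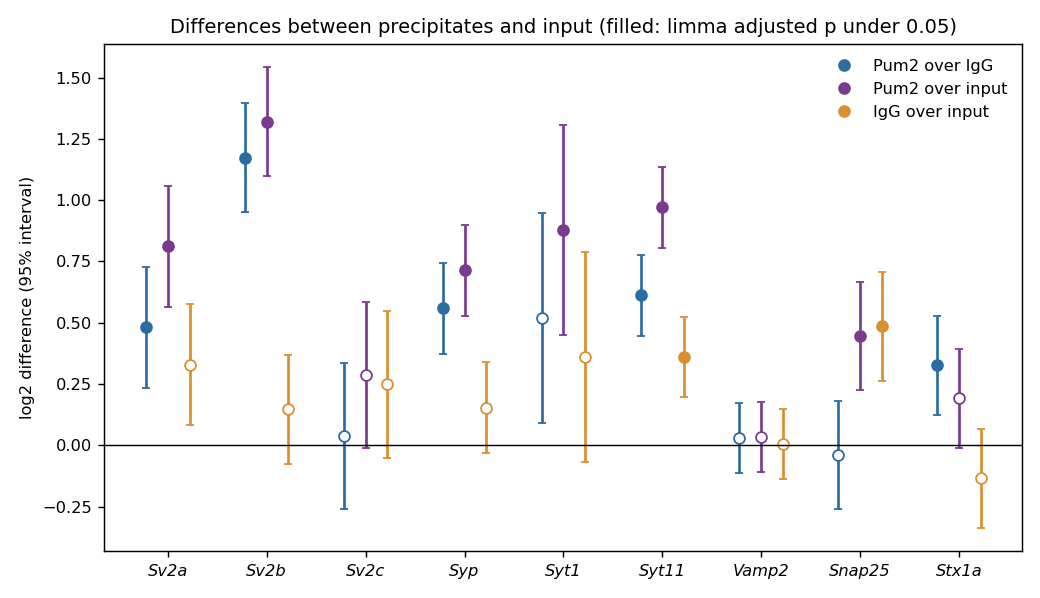
Log2 differences (vertical axis) of the 9 genes in the 3 comparisons; bars are 95% intervals from the limma fit and filled points were called at an adjusted p under 0.05. Sv2b has the highest point in both Pum2 comparisons, 1.17 and 1.32, and Snap25 is filled in both comparisons with input but open against IgG.

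Against input, 6 of the 9 genes rose with Pum2 and 0 fell, and the median difference was 0.71, beside 0.07 over all genes. The genes were Sv2b, Syt11, Syt1, Sv2a, Syp and Snap25. Over all genes 34.7% were called, 21.6% higher and 13.1% lower, with 62.3% of the calls higher, or 52.2% with arrays centred on the brighter genes. The count of lower members at an unadjusted p under 0.05 was 0 here too. The Pum2 arrays lay wholly above input for 7 of the 9 genes and wholly below for 0, beside 28.5% and 16.8% of all genes.

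Nonspecific IgG, the background of the method, was compared with input in the same way. Here 2 of the 9 genes, Syt11 and Snap25, rose and 0 fell, with a median of 0.25 beside 0.02 over all genes. Over all genes 18% were called, 8.25% higher and 9.72% lower. No member was lower at an unadjusted p under 0.05. The IgG arrays lay wholly above input for 4 of the 9 genes and wholly below for 0, beside 15.9% and 16.2% of all genes.

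Sv2a, Sv2b, Syp and Syt11 were higher with Pum2 than in both controls. That is 4 of the 9 genes, beside 14.2% of all genes, including those below the median level, and the 2 comparisons share the Pum2 arrays. Each of the 4 kept both calls when any single array was left out and under the other settings tried. Arrays were normalized to each other, so these values are relative and do not give the share of an RNA recovered by the antibody. In bulk tissue, the number of cells of a type and the RNA per cell cannot be told apart.

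**Figure D3:**
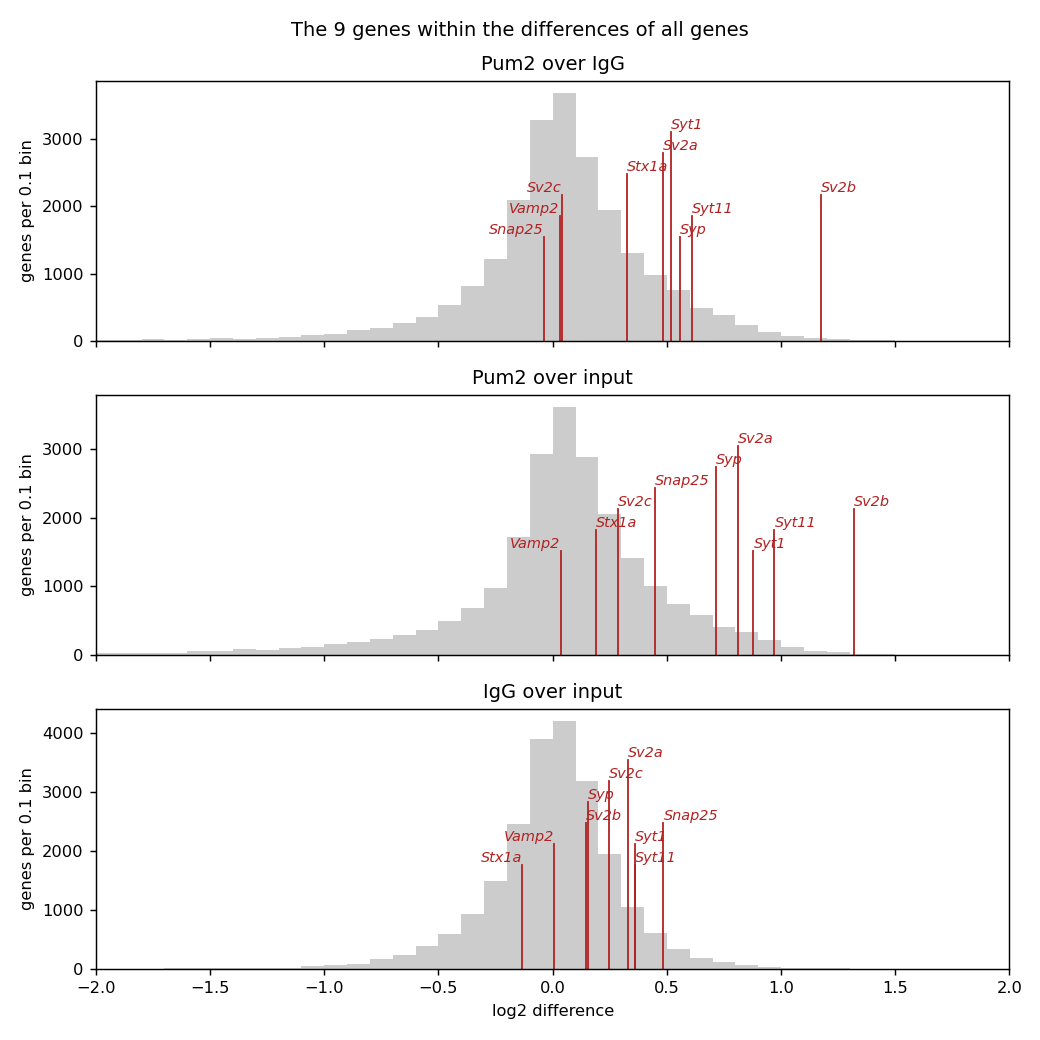
Number of genes (vertical axis, bins of 0.1) by log2 difference (horizontal axis, shown from -2 to 2, genes beyond not drawn) in the 3 comparisons; red lines mark the 9 genes, with heights set for legibility only. Sv2b stands in the right tail against IgG and input, at 1.17 and 1.32, and among the other genes in IgG over input, at 0.15.

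Markers of neurons were read beside these rises. Of 8 genes of young neurons, 0 rose and 2 fell over IgG, namely Map2 (-0.21 ± 0.07, limma adjusted p = 0.0423) and Elavl3 (-0.33 ± 0.08, adjusted p = 0.00934), and their summed log2 signals, 73.79 to 74.27 in IgG and 74.10 to 74.40 with Pum2, overlapped. Over input 3 of the 8 rose and 1 fell. Of 5 genes of mature neurons, 1 rose and 1 fell over IgG, and 4 rose and 1 fell over input. Their summed log2 signals were 37.04 to 37.61 in input, 37.85 to 38.38 in IgG and 38.54 to 38.81 with Pum2, without overlap. Syn1, which rose over IgG by 0.38 ± 0.09 (adjusted p = 0.00736), and Slc17a7, which fell, are also among the vesicle genes described next. The part of neuronal content in the rises was not tested.

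Markers of cells other than neurons also moved. Over input all 4 meningeal genes and 3 of 4 endothelial genes rose, and over IgG 2 of 4 and 2 of 4 did. Their summed log2 signals with Pum2, 33.12 to 33.88 and 35.95 to 36.48, lay above those of IgG, 31.41 to 32.46 and 33.16 to 34.93. Of 6 radial precursor genes 3 rose and 0 fell over IgG, and 3 rose and 2 fell over input. Of 3 intermediate progenitor genes 1 rose over IgG and all 3 over input. Of 4 microglial genes 2 rose in each comparison, and of 4 endocrine secretory genes 2 rose over IgG and 1 over input. Of 4 ganglionic eminence genes 1 rose and 1 fell over IgG, and 2 rose and 0 fell over input. Lists of 3 to 8 genes are read against all genes, of which 19.4% were higher and 11.4% lower over IgG, and 21.6% and 13.1% over input. All 3 red blood cell genes fell over input, and 0 were called over IgG. The part of these cells in the signal of the 9 genes was not tested.

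Relatives of the 9 genes were read by family. Of 13 other synaptotagmin genes measured, 3 rose over IgG and 0 fell, namely Syt4, Syt5 and Syt12, a share near the 19.4% of all genes called higher. Syt4 had signals of 8.04, 7.94 and 8.38 in input, 8.19, 8.01 and 8.44 in IgG and 8.97, 9.06 and 8.95 with Pum2. It rose by 0.78 ± 0.13 over IgG (1.72-fold, limma adjusted p = 0.00132) and by 0.88 ± 0.13 over input (adjusted p = 4.67e-04). The median of the 13 was 0.12 over IgG.

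Svop, which encodes a vesicle protein related in sequence to SV2, had 7.51, 7.36 and 7.46 in input, 7.30, 7.25 and 7.44 in IgG and 7.85, 7.85 and 8.05 with Pum2. It rose by 0.59 ± 0.09 over IgG (limma adjusted p = 5.88e-04) and by 0.47 ± 0.09 over input (adjusted p = 0.0017). Among 5 genes of synaptophysin-like proteins and synaptogyrins, 2 rose over IgG, Syngr2 and Syngr3, where 19.4% of all genes were higher. Syngr2 rose by 0.85 ± 0.08 (adjusted p = 3.01e-05).

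Relatives of the SNARE genes went both ways over IgG, where 19.4% of all genes were higher and 11.4% lower. Of 5 other Vamp genes 1 rose, Vamp4 (0.36 ± 0.12, limma adjusted p = 0.0361), and 0 fell. Of 3 other Snap genes, Snap29 and Snap47 rose and Snap23, the form used widely outside neurons, fell. Of 10 other syntaxin genes 2 rose and 4 fell, with a median of -0.12. Stx7, a syntaxin of late endosomes, fell by 0.80 ± 0.07 (adjusted p = 1.95e-05), with signals of 9.19 to 9.25 in IgG and 8.38 to 8.46 with Pum2.

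Beyond the 9 genes, 124 other genes of the vesicle cycle were listed in 4 groups by function, also with earlier results known, and 117 had a row of their own symbol. Over IgG 40 of the 117 rose and 20 fell (34.2% and 17.1%, beside 19.4% and 11.4% of all genes, median 0.16), and with arrays centred on the brighter genes 28 rose and 23 fell. The comparison with all genes is not matched for level, since 97 of the 117 lay at or above the median level. With only genes of that level tested, 40 of 97 rose and 22 fell over IgG, beside 4344 higher and 2330 lower of 11090 genes. Of the calls, 64.5% and 65.1% were then higher. Over input 45 rose and 16 fell (38.5% and 13.7%, beside 21.6% and 13.1% of all genes, median 0.18). In IgG over input 13 rose and 13 fell (11.1% each, beside 8.25% and 9.72% of all genes, median 0.03), and these 26 calls became 16 without input replicate 3. Higher than both controls were 31 of the 117, beside 14.2% of all genes, in comparisons that share the Pum2 arrays.

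**Figure D4:**
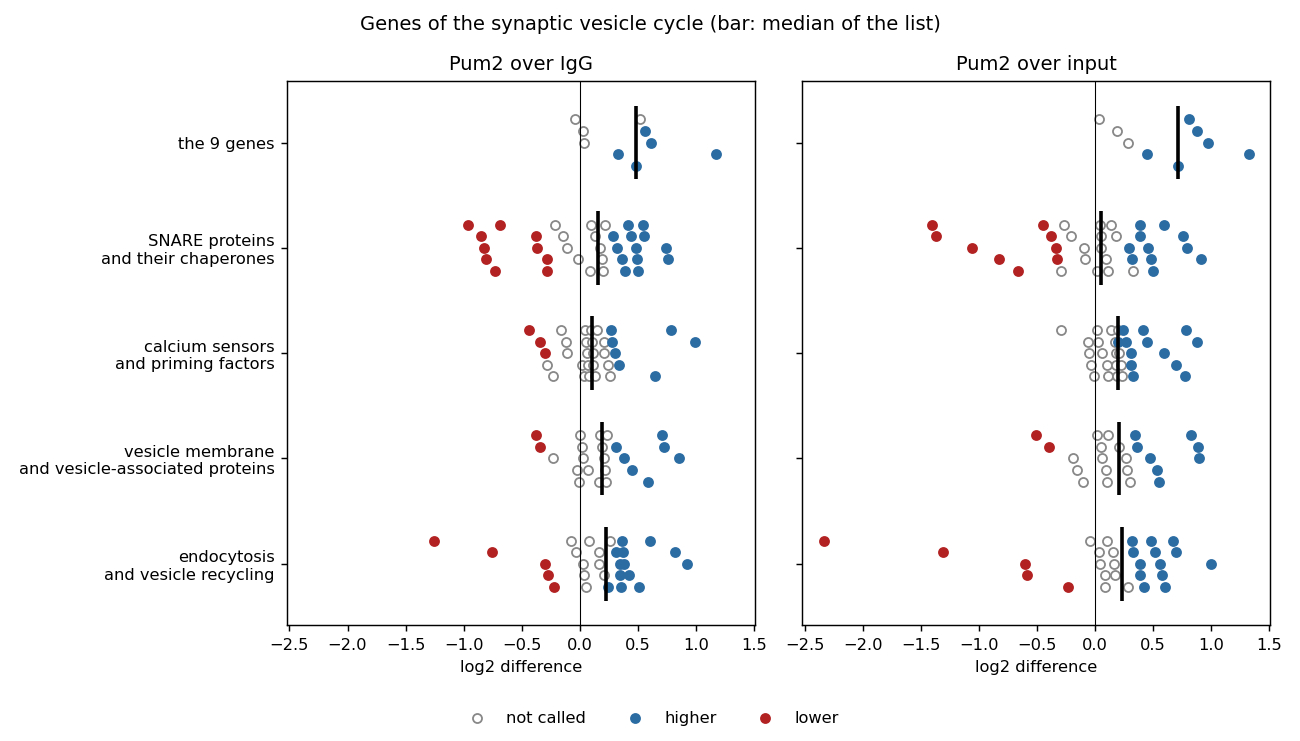
Log2 differences (horizontal axis) of the 9 genes and of 117 other vesicle cycle genes in 4 lists, for Pum2 over IgG and Pum2 over input; each point is a gene, filled where called, and black bars are list medians. The bar of the 9 genes lies at 0.48 and 0.71, and the lowest points are those of Sh3gl2, at -1.25 and -2.34.

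Among 34 measured SNARE genes and chaperones of SNAREs, 13 rose and 10 fell over IgG (38.2% and 29.4%, beside 19.4% and 11.4% of all genes, median 0.15). Over input 11 rose and 9 fell (32.4% and 26.5%, beside 21.6% and 13.1% of all genes, median 0.05). Of the 34, 31 lay at or above the median level of genes, so these shares are not matched for level. With only genes of that level tested, 4344 of 11090 were higher over IgG and 2330 lower. Stxbp3, a Munc18-type partner of syntaxins, rose by 0.76 ± 0.08 over IgG (limma adjusted p = 6.45e-05) and by 0.91 ± 0.08 over input. Napg, a SNAP adaptor of the ATPase that takes SNARE complexes apart, rose by 0.54 ± 0.07 and 0.59 ± 0.07. Cplx1, a complexin that clamps assembled SNAREs, rose by 0.48 ± 0.07 over IgG and by 0.29 ± 0.07 over input.

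Some partners of the SNAREs fell. Snapin, which binds Snap25, had signals of 8.32, 8.34 and 8.32 in input, 7.84, 7.99 and 7.85 in IgG and 6.94, 7.04 and 6.80 with Pum2. It fell by 0.97 ± 0.08 over IgG (limma adjusted p = 2.48e-05) and by 1.40 ± 0.08 over input, and was already lower in IgG than in input. Vti1b, an endosomal SNARE, fell by 0.83 ± 0.09 over IgG and by 1.37 ± 0.09 over input.

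Of 32 calcium sensors and priming factors, 7 rose and 3 fell over IgG (21.9% and 9.38%, near the shares of all genes, median 0.10). Over input 13 rose and 0 fell (40.6% and 0%, beside 21.6% and 13.1% of all genes, median 0.20). Of the 32, 23 lay at or above the median level of genes, so these shares are not matched for level. Rab3a, the vesicle GTPase of regulated release, had 8.93, 8.93 and 8.85 in input, 8.52, 8.51 and 8.80 in IgG and 9.58, 9.55 and 9.67 with Pum2. It rose by 0.99 ± 0.09 over IgG (1.98-fold, limma adjusted p = 3.4e-05) and by 0.69 ± 0.09 over input. In IgG over input Rab3a was lower, by a difference of -0.295 ± 0.09 (adjusted p = 0.0469). The paralog Rab3c fell by 0.44 ± 0.08 over IgG (adjusted p = 0.00192). Rab3c stood above input in both precipitates, by 0.88 ± 0.08 with IgG and 0.44 ± 0.08 with Pum2. Cadps, a priming factor of dense-core vesicles, rose by 0.79 ± 0.09 over input with Pum2 and by 0.52 ± 0.09 with IgG.

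Of 23 other proteins of the vesicle membrane or surface, 7 rose and 2 fell over IgG (30.4% and 8.70%, beside 19.4% and 11.4% of all genes, median 0.19). Over input 8 rose and 2 fell (34.8% and 8.70%, beside 21.6% and 13.1% of all genes, median 0.20). Of the 23, 18 lay at or above the median level of genes, so these shares are not matched for level. Syn2, a synapsin that tethers vesicles, had signals of 7.24, 7.34 and 7.15 in input, 7.41, 7.27 and 7.57 in IgG and 8.08, 8.14 and 8.16 with Pum2, a rise of 0.71 ± 0.09 over IgG (limma adjusted p = 2.53e-04). The genes that fell over IgG were the vesicular glutamate transporters Slc17a6 (-0.38 ± 0.10, adjusted p = 0.0141) and Slc17a7 (-0.34 ± 0.11, adjusted p = 0.039).

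Of 28 genes of endocytosis and vesicle recycling, 13 rose and 5 fell over IgG (46.4% and 17.9%, beside 19.4% and 11.4% of all genes, median 0.22). Over input 13 rose and 5 fell (the same shares, beside 21.6% and 13.1% of all genes, median 0.23). Of the 28, 25 lay at or above the median level of genes, so these shares are not matched for level. Snap91, the clathrin assembly protein AP180, rose by 0.82 ± 0.09 over IgG and by 1.00 ± 0.09 over input (limma adjusted p = 7.47e-05 and 1.35e-05). Ap2a1, an adaptor subunit, rose by 0.92 ± 0.08 over IgG and by 0.67 ± 0.08 over input. Sh3gl2, which encodes endophilin A1, a protein that bends the membrane during vesicle retrieval, had 11.09, 11.21 and 11.07 in input, 10.13, 10.14 and 9.85 in IgG and 8.73, 8.89 and 8.74 with Pum2. It fell by 1.25 ± 0.10 over IgG (adjusted p = 1.32e-05), and IgG itself lay below input by a difference of -1.09 ± 0.10 (adjusted p = 1.61e-04). Its paralog Sh3gl1 rose by 0.60 ± 0.07 over IgG.

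The genes with the most similar pattern over the 9 arrays were taken by the smallest distance after each gene was centred on its input mean, among 10408 genes of at least median level. By this choice their differences must lie close to those of the member, so they are no separate evidence. For Sv2b they were Ier5 (distance 0.305) and Sdc3 (0.319), whose differences over IgG were 1.04 and 1.09. For Syp they were Hspa13 (0.151) and Mogs (0.191), and for Syt11 they were Scrib (0.15) and Susd6 (0.159). For Snap25, which stood above input in both precipitates, they were Eif4g3 (0.202) and Sec24a (0.205), with differences over input of 0.40 and 0.43 with Pum2 and of 0.47 and 0.50 with IgG. None of these genes belongs to the vesicle lists.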

How the data were processed

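RNA of 9 samples was measured on Mouse Gene 2.0 ST arrays. Precipitation used a kit for RNA-binding proteins, and cDNA was amplified from small amounts, per the labels' protocols. The authors deposited log2 values made, per the submitters' processing notes, with RMA in Affymetrix Expression Console, with neither version nor genome build given in the sources used here. RMA corrects background, normalizes arrays and summarises probes. Arrays have no read depth, so their number limits precision.

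Rows with exactly 1 symbol in the platform annotation (23521 of 41345) were kept, taking per gene the row with the highest 9-array mean. The test was limma 3.58.1 (R 4.3.3). A single fit held the 3 groups without a replicate block, which left 6 residual degrees of freedom, and p-values were adjusted by Benjamini-Hochberg over 22180 genes. The procedure was tested on simulated data. The smallest exact permutation p for 3 against 3 arrays is 0.1.

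The members and lists were chosen with earlier results of these data known. Named genes are the 9 members and some of the genes that, per list and comparison, were the 3 highest and 3 lowest called by moderated t. Not all genes that met this rule are named. Syn1, Svop, relatives of the members counted by family, such as Vamp4, Snap29 and Syt5, and single markers were named after their values were seen. For likeness, the 2 nearest genes per member were taken, leaving out members, provisional names and small RNAs. The settings varied were the replicate block, the groups fitted, a filter on level, a robust prior with intensity trend, a repeated quantile normalization, centring on the brighter genes, the mean over a gene's rows, testing every row, and each array left out in turn. Deviations of same-numbered arrays from their group means correlated at 0.00154 to 0.135. Not all passed the 0.1 that would count as pairing.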

Additional observations from a re-analysis of the deposited data

How the results depend on the processing

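Of 27 differences (9 genes, 3 comparisons), all calls held under the 8 other settings except those named here. Stx1a over IgG was not called after quantile normalization run again (0.25) or centring on the brighter genes (0.23). Signs turned for Vamp2 over IgG (-0.091 and -0.065) and Vamp2 over input (-0.048 and -0.036) under these 2 settings, and for Sv2c over IgG with centring (-0.056), none of them called. With each array left out, signs turned within the ranges of Sv2c over IgG (-0.077 to 0.127, below 0 without IgG replicate 2 or Pum2 replicate 3), Snap25 over IgG (-0.115 to 0.017, above 0 without IgG replicate 3) and Vamp2 in IgG over input (-0.005 to 0.011, below 0 without input replicate 2). Stx1a over IgG ranged from 0.263 to 0.405 and lost its call without any of 4 arrays. The causes were not tested. Calls were gained in 8 cases by other settings and in 4 without an array, all for Syt1, Sv2a or Sv2c.

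The numbers did not count as pairing by the 0.1 cut used. However, 7 of 9 arrays correlated best with their own number in both other groups, as would be seen if same-numbered arrays were paired. The 0.1 cut therefore does not exclude pairing. The main calls come from a fit that leaves it out, so the block matters. With the replicate block, 4 of the 9 genes were called in IgG over input in place of 2, and the added calls were Sv2a and Syt1. The share of all genes called there under the block is not given, so this count is not read as particular to the 9 genes. Syt1 over IgG was also called (adjusted p = 0.00403, range over all settings 0.00403 to 0.231).

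Leaving out each array gave 4 to 6, 6 to 7 and 2 to 3 of the 9 genes called, in the order Pum2 against IgG, Pum2 against input, IgG against input. For other vesicle cycle genes it gave 46 to 57, 52 to 61 and 16 to 24, the lowest, 16 in place of 26, without input replicate 3. For all genes it gave 5644 to 6614, 6600 to 7692 and 3041 to 3808. With all 41345 rows tested, 11358 rows were called over IgG (4877 higher and 6481 lower) and 11920 in Pum2 over input (5319 higher and 6601 lower). Precision is set by 3 arrays per group, and RMA values carry no detection call, so how far the dim Sv2c lies above background is unknown.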
